A study of Arabidopsis thaliana with 6 samples.

Results

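Chloroplast genome transcripts were taken as every row of the 3 deposited tables whose gene identifier begins with ATCG and carries no transcript suffix, which gave 133 identifiers among 34014 in all. Of these, 87 carry a gene name in the files or in RefSeq. The tables of high light pair 1 and pair 2 held 85 and 87 of them, and the low light table held values for 95 and blank cells for 38. The 46 identifiers without a name, 22 of which had values in low light, are counted in the sums below and described no further.

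Rosette leaves of Arabidopsis thaliana, Columbia, were compared between ibm1-3 and wild type (WT). IBM1 is a jumonji-type histone demethylase that removes methylation of histone H3 lysine 9 from transcribed nuclear genes, and the ibm1-3 plants carry a mutant allele of this gene. After 48 hours of high light, 2 ibm1-3 and 2 WT libraries came from plants of 30 days. In low light, 1 ibm1-3 and 1 WT library came from plants of 40 days, all grown in long days in a greenhouse. Each numbered high light pair and the low light pair stands in a table of its own, so light, age and table cannot be told apart. No label says that replicates came from separate plants. P-values of the main high light fit, with the replicate number as a block, measure how well the genotype difference agreed between the 2 pairs. They also borrow variance from all genes. Fits without the block measure the spread between libraries of a genotype. Per the series' design text the RNA was purified as mRNA before sequencing. How much of the chloroplast RNA such a purification keeps was not tested, and a lower level in whole leaves cannot be told apart from fewer chloroplasts or fewer green cells.

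Pair 1 held 12502408 estimated fragments in ibm1-3 and 12121246 in WT, and the low light pair held 13099267 reads in ibm1-3 and 15425082 in WT. Pair 2 gives no counts, and its depth is unknown here. IBM1 itself had 17.6 and 7.46 FPKM in ibm1-3, against 13.8 and 8.34 FPKM in WT, and in low light 399 reads in ibm1-3, against 643 reads in WT. Its level in high light therefore did not set the genotypes apart (log2 fold change 0.09 ± 0.13 SE, adjusted p = 0.528, limma), and the labels do not say which part of the gene ibm1-3 affects. In high light 26.0% of all genes tested fell in ibm1-3 and 49.2% rose. Of 5 leaf mesophyll markers, 5 fell, and 2 fell without the replicate block, where 1462 of all 17399 genes fell. Their summed level was 2414 and 5170 FPKM in ibm1-3 against 11386 and 21842 FPKM in WT. Most of these sums was RBCS1A, with 1777 and 4260 FPKM in ibm1-3, against 8597 and 18229 FPKM in WT. RBCS1A is also counted among the nuclear Rubisco subunits below. In low light 4 of those 5 had fewer reads in ibm1-3 after scaling. Of 3 tested guard cell markers 2 fell and 1 rose, and of 3 tested phloem markers 1 rose. Of 4 root markers only PHT1;4 was tested, and it rose (log2 fold change 3.77). No flower or seed marker passed the filter on low values. The part of these markers in the results below was not tested.

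The chloroplast genome encodes core subunits of both photosystems, the cytochrome b6f complex, the ATP synthase, the NDH complex and Rubisco, together with a set of ribosomal proteins and the core of a bacterial-type RNA polymerase, PEP. PEP needs sigma factors encoded in the nucleus to find its promoters, while a phage-type polymerase from the nucleus, NEP, reads other chloroplast genes, among them those for PEP itself. Most chloroplast genes are transcribed together as long precursors that are cut and spliced, so the levels of neighbours depend on processing and decay as well as on transcription. In mature leaves PEP makes most photosynthesis transcripts.

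Chloroplast rows took a smaller share of every ibm1-3 library than of its WT partner. In high light pair 1 they took 0.961% of the FPKM sum in ibm1-3 and 2.43% in WT, and in pair 2 they took 0.637% in ibm1-3 and 1.37% in WT. The mean was 0.799% ± 0.229 in ibm1-3 and 1.90% ± 0.753 in WT (SD, n = 2 each). Both ibm1-3 libraries lay below both WT libraries, although an exact permutation test of 2 against 2 cannot go below the two-sided p = 0.333 found here. Counted as estimated fragments, the share in pair 1 was 0.319% in ibm1-3 and 0.752% in WT. In low light it was 0.152% of reads in ibm1-3 (95% Clopper-Pearson interval 0.150% to 0.154%) and 0.241% in WT (0.238% to 0.243%). These intervals cover counting error only. Divided by WT, the ibm1-3 share was 0.395 and 0.465 in the high light pairs and 0.630 in low light.

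Rows of the mitochondrial genome, taken as a sum, went the other way in the same libraries. They took 0.0611% and 0.0503% of the FPKM sum in ibm1-3 in high light, against 0.0258% and 0.0203% in WT. In low light they took 0.0286% of reads in ibm1-3 and 0.0227% in WT. Single rows were mixed there. Of 30 with at least 50 reads, 18 were lower in ibm1-3 with TMM scaling and 11 with library totals. The difference between the organelle genomes was not tested.

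**Figure D1:**
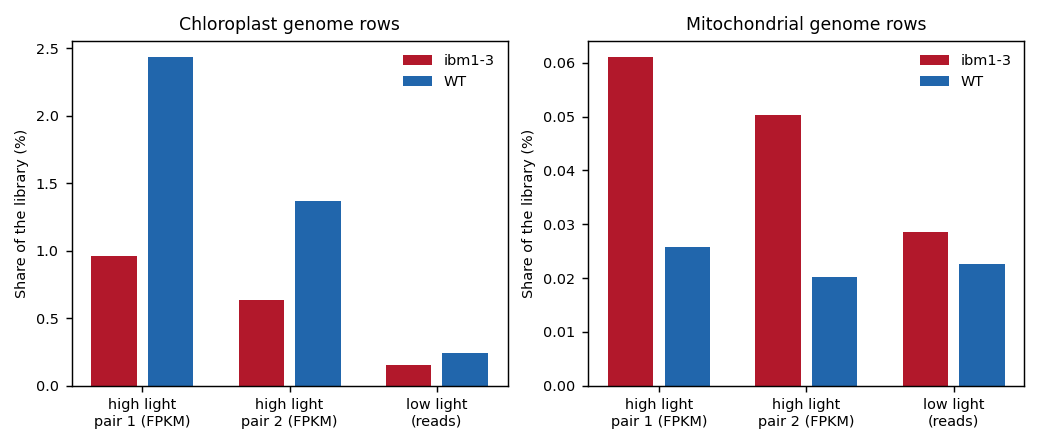
Share of each library, in percent, taken by rows of the chloroplast genome (left) and of the mitochondrial genome (right), with ibm1-3 in red left of WT in blue for each pair. High light bars are shares of the FPKM sum and the low light bars are shares of reads, each bar is 1 library, and in all 3 pairs the chloroplast share was lower and the mitochondrial share higher in ibm1-3.

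In high light, 53 of 76 tested chloroplast genes fell in ibm1-3, 4 rose and 19 did not pass the threshold (limma on log2(FPKM + 1) over all genes with the replicate number as a block, Benjamini-Hochberg adjusted p under 0.05). That is 69.7% lower, where 26.0% of all 17399 tested genes were lower, and 5.26% higher, where 49.2% of all genes were higher. Their median log2 fold change was -0.95, against 0.25 over all genes tested, and their range ran from -2.47 to 1.1. With the copies in the inverted repeat that share identical values counted once, 49 of 72 genes fell and 4 rose. Fold changes are on the log2(FPKM + 1) scale, which understates those of genes near 1 FPKM.

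The direction held in both pairs for most members. Of 81 chloroplast genes with a counted fragment in all 4 high light libraries, 62 were lower in ibm1-3 in both pairs and 8 were higher in both. Among all genes, 31.2% were lower in both pairs and 57.5% were higher in both. The 9 members of both high light tables that failed the filter of 1 FPKM in 2 libraries lay between 0.010 (listed where no fragment was counted) and 1.36 FPKM.

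Levels differed between the 2 WT libraries, and the calls depend on how that is handled. Without the replicate block 17 of 76 members fell and 0 rose (limma, adjusted p under 0.05), with 28 lower and 2 higher at an unadjusted p under 0.05. At the adjusted threshold of that fit, 1462 of all 17399 tested genes were lower and 3162 were higher. Leaving out 1 library, also without the block, left 27 lower without ibm1-3 replicate 1, 18 without ibm1-3 replicate 2, 8 without WT replicate 1 and 11 without WT replicate 2. No member rose in those fits except 1 without ibm1-3 replicate 2, and at an unadjusted p under 0.05 each had 1 higher member.

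**Figure D2:**
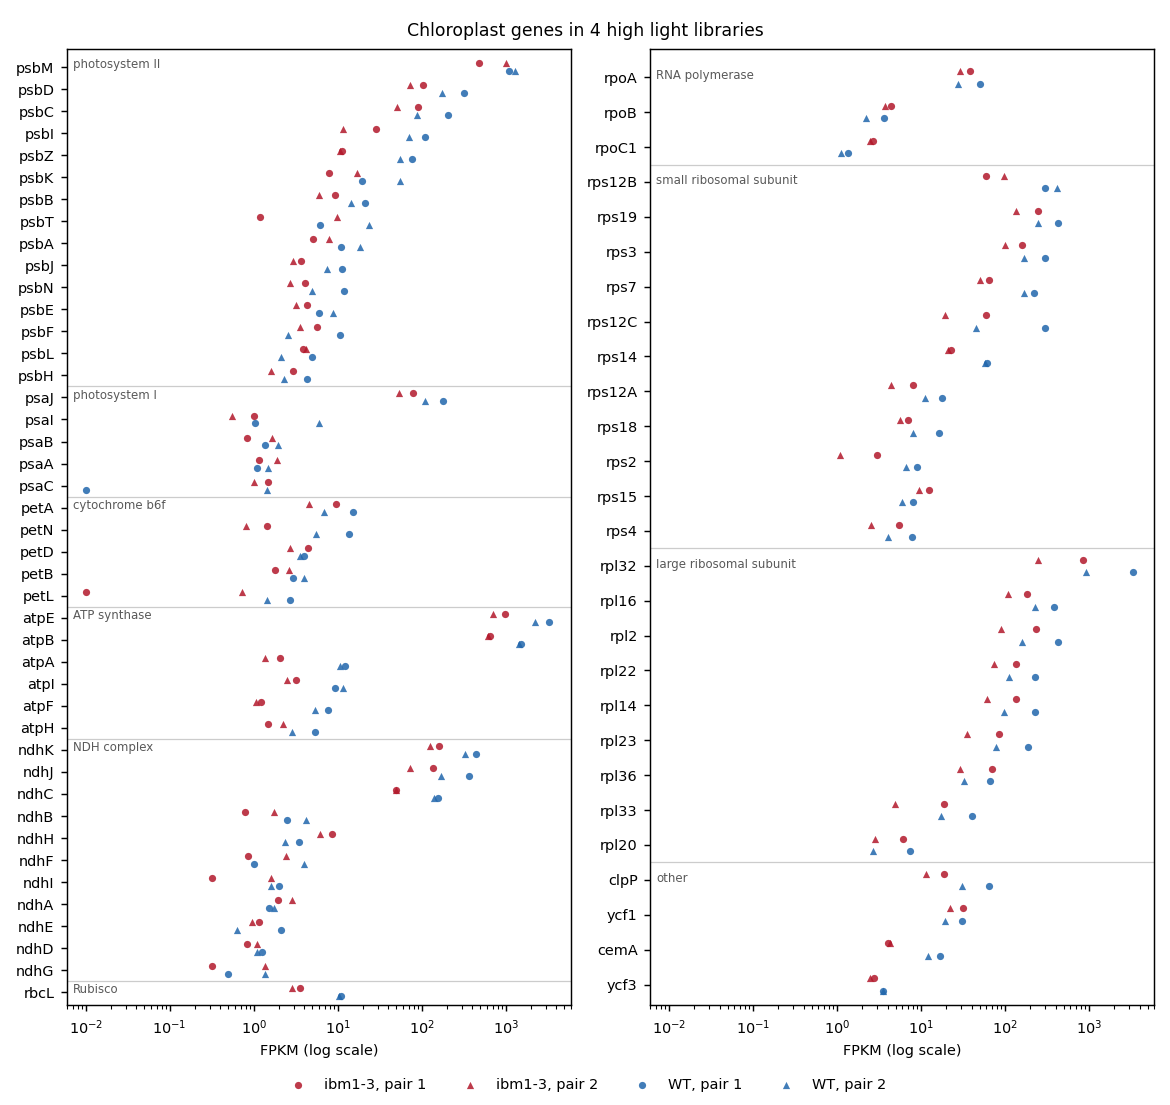
FPKM of tested chloroplast genes on a log scale (2 left out), grouped by role and sorted by the WT mean within a role, with ibm1-3 in red drawn above WT in blue (circles pair 1, triangles pair 2). Most red points lie left of the blue point of the same shape, and the points at 0.010 FPKM are libraries in which no fragment was counted.

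Photosystem II genes fell in 13 of 15 cases, with a median log2 fold change of -1.05. On the log2(FPKM + 1) scale the lowest fold change of any chloroplast gene was in psbZ (ATCG00300), a small subunit that helps attach the light-harvesting antenna, which had 11.3 and 10.7 FPKM in ibm1-3, against 76.6 and 55.5 FPKM in WT (log2 fold change -2.47 ± 0.10 SE, adjusted p = 6.99e-07). Both ibm1-3 values lay far below both WT values. With a pseudocount of 0.1 in place of 1 the order changed, to -2.89 for petN and -2.70 for atpA against -2.56 for psbZ. The reaction centre gene psbD, encoding D2, had 102 and 72.4 FPKM in ibm1-3, against 321 and 176 FPKM in WT (log2 fold change -1.45 ± 0.09 SE, adjusted p = 5.48e-06), and psbC, encoding the core antenna CP43, had 90.1 and 50.6 FPKM in ibm1-3, against 206 and 88.3 FPKM in WT (log2 fold change -0.99, adjusted p = 5.28e-05). For psbC the higher ibm1-3 library exceeded the lower WT library, so the groups overlapped although ibm1-3 was lower within each pair. The genes psbD and psbC overlap, and fragments from the shared stretch cannot be assigned.

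The gene psbA, encoding the D1 protein that is replaced continually in strong light, had 5.11 and 7.86 FPKM in ibm1-3, against 10.8 and 18.6 FPKM in WT (log2 fold change -1.05 ± 0.10 SE, adjusted p = 6.20e-05). It fell in both pairs, and the groups did not overlap. The other core antenna gene, psbB for CP47, had 9.39 and 5.97 FPKM in ibm1-3, against 21.0 and 14.5 FPKM in WT (log2 fold change -1.11, adjusted p = 2.38e-05). The most abundant transcript of the class was psbM, a small subunit at the interface of the dimer, with 479 and 1015 FPKM in ibm1-3, against 1109.9 and 1287 FPKM in WT (log2 fold change -0.78 ± 0.18 SE, adjusted p = 0.00506). Its ibm1-3 values lay below both WT values, close to them in pair 2 and far below in pair 1. The psbI transcript, of another small subunit, had 28.3 and 11.5 FPKM in ibm1-3, against 109 and 70.6 FPKM in WT (log2 fold change -2.21, adjusted p = 4.54e-06). The 2 genes that did not pass were psbL (log2 fold change 0.23, adjusted p = 0.405) and psbF (log2 fold change -0.22, adjusted p = 0.445), neighbours in one transcription unit. The gene psbN lies antisense within the psbB unit, and the strand setting of the counting is not given in the sources used here, so its reads cannot be told apart from those of that unit.

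The psbM gene is shown because it was among the 4 most abundant chloroplast transcripts per length in every library. It lies at ChrC:28707-28811, minus strand (TAIR10 coordinates of the files, sequence from RefSeq TAIR10.1), and its start and stop codons are in capitals.
psbM: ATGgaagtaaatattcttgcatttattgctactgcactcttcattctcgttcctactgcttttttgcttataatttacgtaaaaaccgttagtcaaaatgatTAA
At this length, a few fragments carry a large value per kilobase. In pair 1 its level rested on 420 fragments in ibm1-3 and 944 in WT.

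Of 5 tested photosystem I genes, 1 fell. That gene was psaJ, a small subunit, with 79.4 and 53.0 FPKM in ibm1-3, against 178 and 110.3 FPKM in WT (log2 fold change -1.1 ± 0.06 SE, adjusted p = 3.18e-06). The large reaction centre subunits did not pass in either direction, with 1.16 and 1.91 FPKM in ibm1-3, against 1.09 and 1.47 FPKM in WT for psaA (log2 fold change 0.14 ± 0.15 SE, adjusted p = 0.42) and 0.830 and 1.64 FPKM in ibm1-3, against 1.37 and 1.97 FPKM in WT for psaB (log2 fold change -0.27 ± 0.15 SE, adjusted p = 0.142). Their ranges overlapped between genotypes, and psaA rested on 33 fragments in ibm1-3 and 30 in WT in pair 1. The psaI gene had the lowest fold change of the class at -1.11 (adjusted p = 0.0502) and psaC, encoding the iron-sulfur subunit, the highest at 0.52 (adjusted p = 0.196). In the WT library of pair 1 no psaC fragment was counted.

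In the cytochrome b6f complex, which passes electrons between the photosystems, 4 of 5 tested genes fell. The most abundant, petA for cytochrome f, had 9.54 and 4.57 FPKM in ibm1-3, against 15.1 and 6.92 FPKM in WT (log2 fold change -0.56 ± 0.10 SE, adjusted p = 0.00173). It fell within each pair, while the values of the genotypes overlapped across pairs. Cytochrome b6, from petB, had 1.79 and 2.66 FPKM in ibm1-3, against 2.90 and 3.92 FPKM in WT (log2 fold change -0.46, adjusted p = 0.016). The small subunit gene petN fell furthest, with 1.46 and 0.800 FPKM in ibm1-3, against 13.6 and 5.59 FPKM in WT (log2 fold change -2.22, adjusted p = 2.38e-05), and petD, for subunit IV, did not pass (log2 fold change -0.09, adjusted p = 0.581).

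All 6 ATP synthase genes fell, with a median log2 fold change of -1.65. The pair atpB and atpE, encoding the beta and epsilon subunits of the catalytic head from overlapping frames, was among the most abundant of the genome. For atpE the values were 990.2 and 697 FPKM in ibm1-3, against 3322 and 2250.4 FPKM in WT (log2 fold change -1.72 ± 0.07 SE, adjusted p = 6.92e-07). For atpB they were 652 and 617 FPKM in ibm1-3, against 1541 and 1438 FPKM in WT (log2 fold change -1.23 ± 0.06 SE, adjusted p = 2.38e-06). In both genes the ibm1-3 libraries lay well below the WT libraries. The alpha subunit gene atpA was far less abundant and fell further, with 2.05 and 1.35 FPKM in ibm1-3, against 12.3 and 10.6 FPKM in WT (log2 fold change -2.21 ± 0.12 SE, adjusted p = 3.10e-06). The smallest fall of the class was in atpH, for the ring subunit, with 1.49 and 2.25 FPKM in ibm1-3, against 5.38 and 2.86 FPKM in WT (log2 fold change -0.80, adjusted p = 0.0202). The large subunit of Rubisco, rbcL, which fixes carbon dioxide, had 3.54 and 2.87 FPKM in ibm1-3, against 11.0 and 10.5 FPKM in WT (log2 fold change -1.48 ± 0.11 SE, adjusted p = 1.76e-05), with both ibm1-3 libraries below both WT libraries.

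Of 12 tested genes of the NDH complex, which carries cyclic electron flow around photosystem I, 5 fell, 1 rose and 6 did not pass. The neighbours ndhC, ndhK and ndhJ fell together, and ndhB, in its pair of identical copies, fell as well. The most abundant, ndhK, had 162 and 126 FPKM in ibm1-3, against 439.8 and 324 FPKM in WT (log2 fold change -1.40 ± 0.06 SE, adjusted p = 7.89e-07), and ndhC had the lowest fold change of the class with 50.05 and 49.4 FPKM in ibm1-3, against 154 and 142 FPKM in WT (log2 fold change -1.56 ± 0.06 SE, adjusted p = 5.88e-07). By contrast ndhH (ATCG01110), encoding a subunit of the hydrophilic arm, had 8.67 and 6.16 FPKM in ibm1-3, against 3.45 and 2.39 FPKM in WT (log2 fold change 1.1 ± 0.12 SE, adjusted p = 1.05e-04). Both ibm1-3 libraries exceeded both WT libraries, by more than the spread within either genotype, and in pair 1 the values rested on 127 fragments in ibm1-3 and 49 in WT. On this scale it was the highest fold change of any chloroplast gene, while with a pseudocount of 0.1 it was 1.32, below psaC at 1.70, which rests on few fragments. The next gene downstream, ndhA, had 1.94 and 2.82 FPKM in ibm1-3, against 1.54 and 1.76 FPKM in WT and did not pass (log2 fold change 0.34 ± 0.15 SE, adjusted p = 0.0709). At the other end of the small single-copy region, ndhF had 0.850 and 2.41 FPKM in ibm1-3, against 1.02 and 3.99 FPKM in WT (log2 fold change -0.34 ± 0.16 SE, adjusted p = 0.0953), with overlapping groups.

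Of the genes of the plastid-encoded polymerase, 3 were tested, of which 2 rose and 1 did not pass. The rpoC1 transcript, encoding the beta-prime subunit, had 2.69 and 2.49 FPKM in ibm1-3, against 1.36 and 1.11 FPKM in WT (log2 fold change 0.69 ± 0.14 SE, adjusted p = 0.00336). The rpoB transcript, encoding the beta subunit, had 4.42 and 3.72 FPKM in ibm1-3, against 3.64 and 2.22 FPKM in WT (log2 fold change 0.39 ± 0.14 SE, adjusted p = 0.0381). In both, every ibm1-3 library exceeded every WT library, though by little for rpoB. In pair 1 they rested on 69 fragments in ibm1-3 and 34 in WT for rpoC1 and 180 fragments in ibm1-3 and 144 in WT for rpoB. The third gene of this unit, rpoC2, stayed below the filter with 0.630 and 0.600 FPKM in ibm1-3, against 1.08 and 0.280 FPKM in WT. The alpha subunit gene rpoA lies elsewhere, at the end of a ribosomal protein unit, and had 38.4 and 29.3 FPKM in ibm1-3, against 50.9 and 27.8 FPKM in WT (log2 fold change -0.16 ± 0.11 SE, adjusted p = 0.219). With median-of-ratios size factors, which lowered the median of all genes by 0.21, rpoB no longer passed (log2 fold change 0.21, adjusted p = 0.204).

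Ribosomal protein genes mostly fell. In the small subunit 12 of 14 tested genes fell and 1 rose, and in the large subunit 9 of 11 fell, with copies counted separately. The most abundant large subunit gene, rpl32, had 843 and 249 FPKM in ibm1-3, against 3354 and 919.8 FPKM in WT (log2 fold change -1.93 ± 0.07 SE, adjusted p = 3.44e-07). Each ibm1-3 value lay below its WT partner by about the same factor, although pair 1 stood well above pair 2 in both genotypes. In the small subunit rps19 was the most abundant, with 249.5 and 134 FPKM in ibm1-3, against 422 and 245 FPKM in WT (log2 fold change -0.81, adjusted p = 1.42e-05). The rps12B row fell furthest, with 59.1 and 96.1 FPKM in ibm1-3, against 295 and 417 FPKM in WT (log2 fold change -2.20 ± 0.07 SE, adjusted p = 2.06e-07). It shares its values in pair 1 with the row of the other copy, rps12C, and the assignment between these copies is uncertain.

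The 1 ribosomal protein gene that rose was rps15 (ATCG01120), the neighbour of ndhH, with 12.6 and 9.46 FPKM in ibm1-3, against 8.04 and 5.94 FPKM in WT (log2 fold change 0.59 ± 0.10 SE, adjusted p = 0.00114). Both ibm1-3 libraries exceeded both WT libraries. In the large subunit rpl36 had the highest fold change at -0.05 (adjusted p = 0.622), which did not pass the threshold.

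Among the other genes, clpP, the catalytic subunit of a chloroplast protease, was the most abundant and had 18.6 and 11.5 FPKM in ibm1-3, against 64.0 and 30.5 FPKM in WT (log2 fold change -1.53 ± 0.10 SE, adjusted p = 8.30e-06). The lowest of this group was cemA, an envelope protein, with 4.07 and 4.32 FPKM in ibm1-3, against 16.8 and 12.1 FPKM in WT (log2 fold change -1.55, adjusted p = 4.04e-05). The large frame ycf1, for a component attributed to the protein import machinery, had 31.5 and 22.3 FPKM in ibm1-3, against 31.1 and 19.3 FPKM in WT and did not pass (log2 fold change 0.11 ± 0.08 SE, adjusted p = 0.23). Below the filter in high light stayed accD of fatty acid synthesis with 0.550 and 0.480 FPKM in ibm1-3, against 1.35 and 0.600 FPKM in WT, the intron maturase matK with 0.910 and 0.420 FPKM in ibm1-3, against 1.25 and 0.860 FPKM in WT, and ycf2 with 0.140 and 0.120 FPKM in ibm1-3, against 0.550 and 0.310 FPKM in WT.

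**Figure D3:**
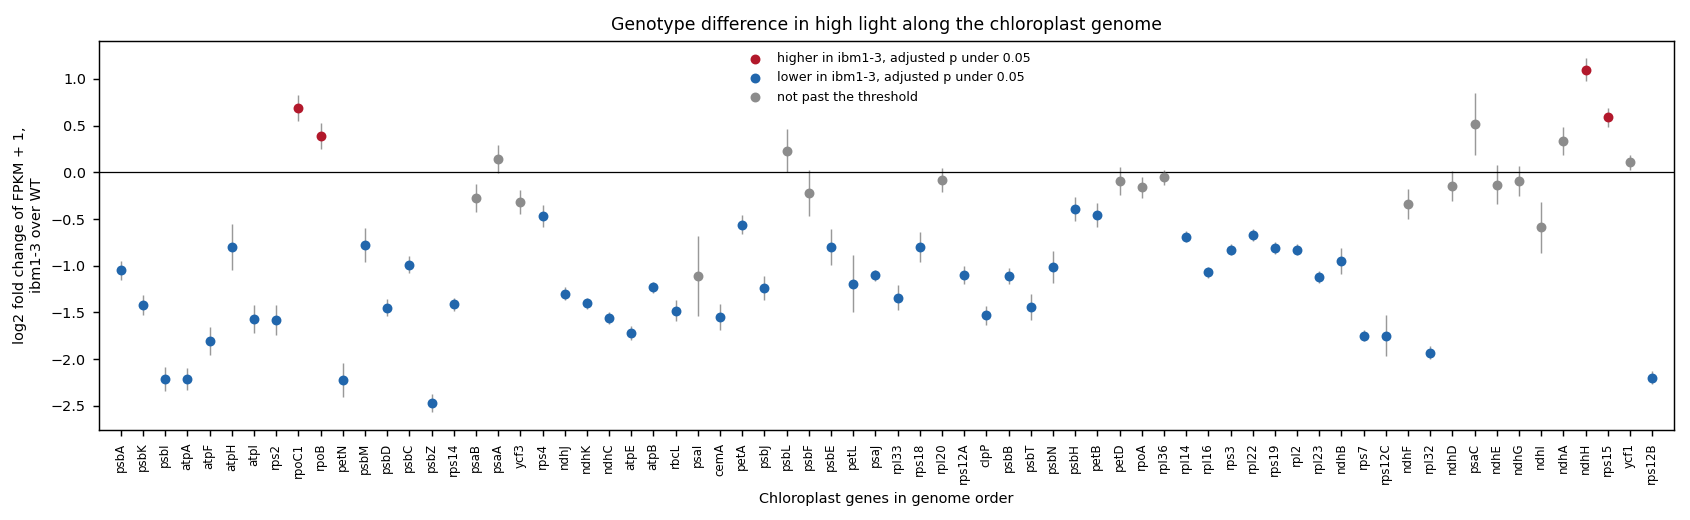
Log2 fold change of FPKM + 1 (ibm1-3 over WT, high light) of tested chloroplast genes placed in genome order by rank, with the second of 2 inverted repeat copies left out where both have identical values (rps12B and rps12C do not, and both are shown). The plot leaves out 2 tested genes. Points are the estimates and bars their SE, red and blue points passed the threshold, and the 4 red points are rpoC1 and rpoB on the left and ndhH and rps15 on the right.

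The unit of rps2, atpI, atpH, atpF and atpA fell throughout, with log2 fold changes from -2.21 to -0.80. The unit of ndhC, ndhK and ndhJ lay between -1.56 and -1.30, and that of psbD, psbC and psbZ between -2.47 and -0.99. Other units were mixed. In that of psaA, psaB and rps14, 1 of 3 genes fell (-1.41 to 0.14), in that of psbE, psbF, psbL and psbJ 2 of 4 (-1.24 to 0.23), and in that of psbB, psbT, psbH, petB and petD 4 of 5 (-1.44 to -0.09). In the long ribosomal protein unit that runs from rpl23 to rpoA, 8 of 11 genes fell, and 3 did not pass, among them rpl36 and rpoA near its end. In the neighbouring unit of rpoB, rpoC1 and rpoC2, the 2 tested genes, rpoB and rpoC1, rose. The gene next to rps2, rpoC2, was below the filter, with log2 ratios of -0.78 in pair 1 and 1.1 in pair 2. In the unit that begins with rps15 and ndhH and ends with ndhD, 2 of 8 genes rose and 6 did not pass. Among those 6, psaC, ndhE, ndhG and ndhI rested on at most 12 fragments per library in pair 1. Their direction is therefore uncertain. These units were drawn up from textbook knowledge with the values known, and their agreement was not tested.

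The stretches before the coding starts of 2 genes that rose, rpoB and rps15, and of 3 that fell, psbZ, atpB and rpl32, are shown because rpoB, rps15, psbZ and atpB stand for neighbours that rose or fell together and rpl32 is the most abundant ribosomal protein gene that fell. Each runs from 250 bases before the start codon to 50 after its first base, from RefSeq TAIR10.1, 5′ to 3′ on the gene's strand. Capitals mark matches to TTGACA or TATAAT, the textbook upstream and downstream elements of bacterial-type promoters, on either strand.
rpoB: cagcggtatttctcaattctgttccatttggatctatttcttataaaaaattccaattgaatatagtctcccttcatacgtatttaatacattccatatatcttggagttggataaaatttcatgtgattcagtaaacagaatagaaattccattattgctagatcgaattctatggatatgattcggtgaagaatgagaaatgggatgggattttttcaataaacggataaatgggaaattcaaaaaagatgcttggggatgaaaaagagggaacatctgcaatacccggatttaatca
rps15: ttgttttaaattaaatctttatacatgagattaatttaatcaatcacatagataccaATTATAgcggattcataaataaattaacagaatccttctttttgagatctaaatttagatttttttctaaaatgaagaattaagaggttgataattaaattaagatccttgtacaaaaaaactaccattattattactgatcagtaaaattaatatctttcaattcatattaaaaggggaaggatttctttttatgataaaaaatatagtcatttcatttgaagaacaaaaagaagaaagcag
psbZ: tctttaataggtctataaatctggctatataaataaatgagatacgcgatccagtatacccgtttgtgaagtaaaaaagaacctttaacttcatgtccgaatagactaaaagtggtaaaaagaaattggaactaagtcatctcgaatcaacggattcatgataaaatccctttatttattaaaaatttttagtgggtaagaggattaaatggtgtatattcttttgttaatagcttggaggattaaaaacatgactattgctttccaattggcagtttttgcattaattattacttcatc
atpB: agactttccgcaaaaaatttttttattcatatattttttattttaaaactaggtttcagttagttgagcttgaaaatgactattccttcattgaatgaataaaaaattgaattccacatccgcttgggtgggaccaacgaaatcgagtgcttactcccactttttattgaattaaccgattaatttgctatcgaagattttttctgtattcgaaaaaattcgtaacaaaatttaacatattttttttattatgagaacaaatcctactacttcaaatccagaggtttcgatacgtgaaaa
rpl32: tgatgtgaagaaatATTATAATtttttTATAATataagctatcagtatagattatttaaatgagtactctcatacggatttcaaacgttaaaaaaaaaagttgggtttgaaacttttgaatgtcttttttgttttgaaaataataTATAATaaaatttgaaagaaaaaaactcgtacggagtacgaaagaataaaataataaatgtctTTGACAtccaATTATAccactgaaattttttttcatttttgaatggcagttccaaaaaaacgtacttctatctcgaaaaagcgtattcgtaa
They lie at ChrC:26280-26579, minus strand, ChrC:123513-123812, minus strand, ChrC:35501-35800, plus strand, ChrC:54107-54406, minus strand and ChrC:113199-113498, plus strand. In the rpl32 window 1 match to TTGACA and 5 to TATAAT were found, of which a pair on opposite strands overlaps. In the rps15 window 1 match to TATAAT was found on the opposite strand, and in the rpoB, psbZ and atpB windows none. Over 79 distinct chloroplast windows of this length, TTGACA occurred in 15.2% and TATAAT in 43.0%. Among the 48 windows of genes that fell the shares were 14.6% and 39.6%, and each motif occurred in 1 of the 4 windows of genes that rose. A match or its absence says nothing here about where transcription starts, and mapped promoters were not used here.

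Genes usually described as read by PEP fell in 15 of 17 cases in high light (median log2 fold change -1.05). Of 11 genes usually described as read by NEP, 7 were tested, of which 4 fell and 2 rose (median -0.80). All genes tested had a median of 0.25 and a lower share of 26.0%. The genes on the NEP list that fell were rpl33, rps18, rpl2 and rpl23, and those that rose were rpoB and rpoC1. The difference between the lists was not tested.

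Nuclear genes of the polymerases moved in both directions in the same libraries. All 6 sigma factors fell in high light, where 26.0% of all genes fell, from SIG6 (45.6 and 32.9 FPKM in ibm1-3, against 58.0 and 38.8 FPKM in WT, log2 fold change -0.29, adjusted p = 0.00576) to SIG5, which is known for its induction by strong light. SIG5 had 11.6 and 7.51 FPKM in ibm1-3, against 233 and 164 FPKM in WT (log2 fold change -4.24 ± 0.06 SE, adjusted p = 2.51e-08). The others were SIG1 (-1.69), SIG2 (-0.81), SIG3 (-0.36) and SIG4 (-0.72) on the same log2 scale. Both phage-type polymerases rose, where 49.2% of all genes did. Without the replicate block 2 sigma factors, SIG1 (adjusted p = 0.0276) and SIG5 (adjusted p = 0.0083), and 1 phage-type polymerase still passed (limma). In that fit 1462 of all 17399 tested genes fell and 3162 rose. RPOTp, of the chloroplast, had 14.3 and 12.8 FPKM in ibm1-3, against 10.8 and 8.52 FPKM in WT (log2 fold change 0.45 ± 0.10 SE, adjusted p = 0.00363). RPOTmp, which serves chloroplasts and mitochondria, had 8.59 and 7.07 FPKM in ibm1-3, against 3.56 and 2.53 FPKM in WT (log2 fold change 1.13 ± 0.12 SE, adjusted p = 9.09e-05). In low light none of these 8 genes was lower in ibm1-3, with RPOTmp at 304 reads in ibm1-3, against 117 reads in WT (log2 ratio 1.35, interval 1.04 to 1.67) and SIG5 at 868 reads in ibm1-3, against 848 reads in WT (log2 ratio 0.01, interval -0.13 to 0.15).

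Of 13 proteins associated with PEP, 8 (61.5%) rose, 1 fell and 4 did not pass, beside 49.2% of all genes that rose. Without the replicate block 2 of the 13 rose. In the fit without the block, 3162 of all 17399 tested genes rose and 1462 fell, which is the background for the counts without the block below. Those with the smallest p were PAP5 (log2 fold change 1.47, adjusted p = 3.60e-06) and PAP4 (log2 fold change 1.19, adjusted p = 4.11e-05). Nuclear genes for partners of the chloroplast-encoded proteins fell alongside them. Of 30 nuclear genes for plastid ribosomal proteins 28 (93.3%) fell, beside 26.0% of all genes, with a median log2 fold change of -0.98, and without the block 8 fell. The smallest p were those of PRPS21 (log2 fold change -1.51) and PRPL1 (log2 fold change -1.32). All 12 listed nuclear subunits of photosystem I fell (median -1.80), 6 of them without the block, with the smallest p for PSAD2 (log2 fold change -2.45) and PSAN (log2 fold change -2.45). All 10 of photosystem II fell as well (median -2.01), 7 of them without the block, with the smallest p for PSBO2 (log2 fold change -2.70) and PSBQ1 (log2 fold change -2.19). The 14 nuclear subunits of cytochrome b6f, ATP synthase, NDH and Rubisco also fell throughout (median -1.73), 8 of them without the block, with RBCS3B at -3.48 and NDHN at -1.82.

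In low light, where each genotype has 1 library and no test is possible, all 67 chloroplast genes with at least 50 reads had fewer in ibm1-3 after scaling. Of these, 30 (44.8%) were at least 2-fold lower and 0 at least 2-fold higher. Among all 16509 genes with that many reads, 9.86% were at least 2-fold lower, 5.81% were at least 2-fold higher and 49.0% were lower at all. The median log2 ratio of the chloroplast genes was -0.87, against 0.01 over all genes, and their range ran from -2.12 to -0.13. The lower end is psbI, listed at 0 in ibm1-3 against 60 reads in WT, so -2.12 is only an upper bound of its ratio. The exact 95% binomial interval, which covers counting error only, lay below 0 for 61 of the 67, against 32.0% of all genes. Scaled to the library totals in place of TMM factors, which raised the median of all genes by 0.26, 64 of 67 were lower, 17 (25.4%) at least 2-fold, against 7.01% of all genes, the interval lay below 0 for 51, and the median was -0.60.

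The lowest ratios were in small photosystem subunits and NDH genes. Among members with at least 100 reads they were in psbK, a small subunit of photosystem II, with 43 reads in ibm1-3, against 158 reads in WT (log2 ratio -1.90, interval -2.42 to -1.41), and psbT, another, with 23 reads in ibm1-3, against 83 reads in WT (log2 ratio -1.88, interval -2.61 to -1.20). Next came psaJ with 137 reads in ibm1-3, against 493 reads in WT (log2 ratio -1.87, interval -2.16 to -1.60). The NDH subunit genes followed, ndhJ with 110 reads in ibm1-3, against 380 reads in WT (log2 ratio -1.81, interval -2.13 to -1.50) and ndhC with 46 reads in ibm1-3, against 156 reads in WT (log2 ratio -1.79, interval -2.29 to -1.30). With TMM scaling all 5 intervals lay wholly below -1 on the log2 scale, a 2-fold fall. Scaled to library totals, those of psbK, psaJ, ndhJ and ndhC still did, while that of psbT ran from -2.35 to -0.93.

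At the other end, accD had 55 reads in ibm1-3, against 59 reads in WT (log2 ratio -0.13, interval -0.68 to 0.43) and rpl20 had 51 reads in ibm1-3, against 56 reads in WT (log2 ratio -0.16, interval -0.74 to 0.41), intervals that include 0. The same holds for rps2, with 50 reads in ibm1-3, against 64 reads in WT (log2 ratio -0.38, interval -0.94 to 0.18). The ycf1 frame had 576 reads in ibm1-3, against 665 reads in WT (log2 ratio -0.23, interval -0.40 to -0.07). The D1 gene psbA, one of the most counted members, had 3397 reads in ibm1-3, against 4073 reads in WT (log2 ratio -0.29, interval -0.35 to -0.22). Scaled to library totals, both intervals include 0, with log2 ratio -0.03, interval -0.09 to 0.04 for psbA and log2 ratio 0.03, interval -0.13 to 0.19 for ycf1.

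By role, photosystem II genes had a median log2 ratio of -1.27 in low light, with 8 of 12 at least 2-fold lower, and NDH genes -1.22 with 5 of 8. ATP synthase genes had -1.21 with 5 of 6, among them atpB with 1423 reads in ibm1-3, against 3191 reads in WT (log2 ratio -1.19, interval -1.28 to -1.1) and atpA at -1.22. Scaled to library totals atpA (-0.96), atpB (-0.93) and atpI (-0.86) were no longer 2-fold lower, while atpF (-1.16) and atpH (-1.02) still were. Among all genes 9.86% were at least 2-fold lower with TMM scaling and 7.01% with library totals. Of 4 polymerase genes none was 2-fold lower, and all 4 were lower, with rpoA at -0.74, rpoB at -0.63, rpoC1 at -0.71 and rpoC2 at -0.80. Rubisco's rbcL had 701 reads in ibm1-3, against 1165 reads in WT (log2 ratio -0.76, interval -0.89 to -0.62). In photosystem I psaA had 937 reads in ibm1-3, against 1686 reads in WT (log2 ratio -0.87, interval -0.99 to -0.76) and psaB 1030 reads in ibm1-3, against 1859 reads in WT (log2 ratio -0.88, interval -0.99 to -0.77). For cytochrome b6f petB stood at -0.80 and petA at -1.12, and for photosystem II psbB at -1.60, psbC at -1.12 and psbD at -0.70. The remaining named genes matK, clpP and ndhF stood at -1.21, -0.57 and -1.41. Genes on the PEP list had a median of -1.0 (n = 16) and those on the NEP list -0.72 (n = 8). These are not quite the genes tested in high light. On the NEP list rpoC2, accD and matK entered and rpl2 and rpl23 dropped out, and the PEP list lost psbN. Genes of the inverted repeat, ycf2 included, are blank in this table.

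The order of transcript levels per length differed between the light conditions in WT. In high light the genes atpE, rpl32, atpB and psbM together held 50% and 59.7% of the chloroplast FPKM sum in the ibm1-3 libraries, and 58.9% and 60.6% in the WT libraries. In low light psbM, rpl32, psbA and psaJ led in WT, and psbM, psbA, rpl32 and rpl16 in ibm1-3. The psbM transcript had 25381 reads per kilobase in ibm1-3, against 59600.0 in WT, far above psbA with 3199 reads per kilobase in ibm1-3, against 3835 in WT. Across 69 genes with reads in the WT low light library, Spearman's rho between the high light mean and the low light level in WT was 0.75, and between the WT high light libraries it was 0.95. These describe genes within libraries, which are not independent replicates.

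The rank per length in WT differed between conditions for several reaction centre genes but not for all. Among the 69 genes psbA ranked 3 in low light and 29 in high light, psaB 18 and 57, and psaA 22 and 60, while psbD ranked 9 in both. The Rubisco gene rbcL ranked 20 in low light and 35 in high light, and rps19 ranked 35 in low light and 6 in high light. The labels name Illumina and BGI library protocols without saying which sample had which, so light, age and library preparation cannot be told apart in these ranks.

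**Figure D4:**
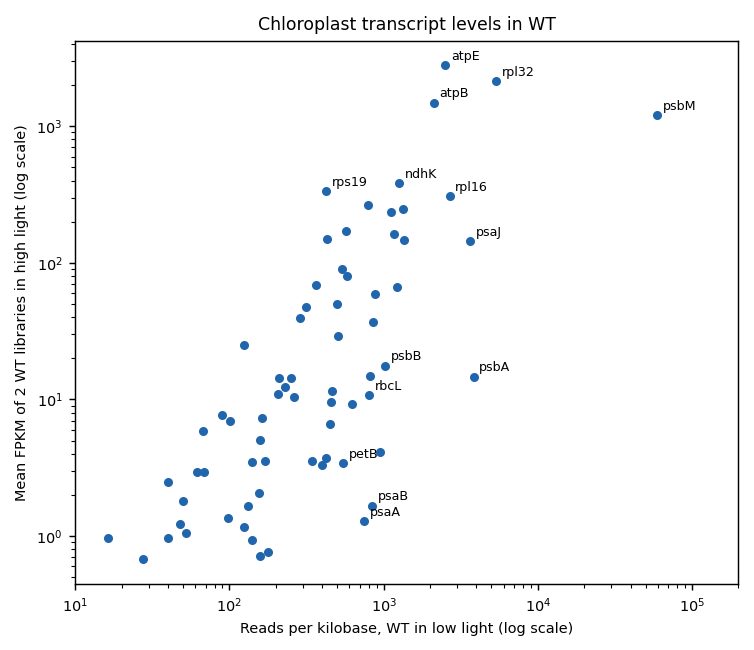
Level per length of 69 chloroplast genes in WT, as reads per kilobase in the low light library (horizontal, log scale) against the mean FPKM of 2 high light libraries (vertical, log scale), 1 point per gene. The psbA, psaA and psaB points lie below the main cloud, and psbM lies far to the right.

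The genotype difference in high light was set against that in low light within one fit of the 3 within-table log2 ratios. Of 56 chloroplast genes that could be compared, 28 (50%) passed an adjusted p under 0.05 (limma), against 61.4% of all 15734 genes compared, so the members as a group did not stand out by this count. Of the 28, 17 had the higher ratio of ibm1-3 over WT in high light and 11 the lower. This balance depended on scaling. With ratios centred on the median of all genes, 26 passed, 12 with the higher ratio in high light and 14 with the lower. The comparison of conditions leaves 1 residual degree of freedom and assumes that the single low light pair varies like the high light pairs, so its p-values rest on that assumption. For genes with few low light reads, such as ndhH and rpoC1, its SE was smaller than the counting error of the low light ratio. With that counting error added to the SE, 20 of 56 passed, against 48.1% of all genes, of which 10 had the higher ratio in high light and 10 the lower. The SEs and adjusted p-values below include it. The high light ratios carry a pseudocount that pulls low genes toward 0, and with 0.1 in place of 1, 25 genes passed.

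In 6 genes that passed both ways, the sign was opposite in the 2 conditions, above 0 in high light and below 0 in low light. Of these, 5 are described here. The largest difference among them was in ndhH, which had 49 reads in ibm1-3, against 73 reads in WT in low light (log2 ratio -0.60, interval -1.15 to -0.06) and a difference of 1.70 ± 0.31 SE, adjusted p = 0.00849. It was followed by rpoC1, with 61 reads in ibm1-3, against 98 reads in WT (log2 ratio -0.71, interval -1.19 to -0.23) and a difference of 1.39 ± 0.28 SE, adjusted p = 0.012. The others were ndhA (1.26, adjusted p = 0.0144), rpoB (1.01, adjusted p = 0.0209) and psaA (1.01, adjusted p = 0.00568). Scaled to library totals, the low light intervals of ndhH (log2 ratio -0.34, interval -0.89 to 0.20) and rpoC1 (log2 ratio -0.45, interval -0.93 to 0.03) include 0. Those of ndhA, rpoB and psaA stayed below 0 with that scaling. In high light ndhH, rpoC1 and rpoB rose on their own test, while ndhA and psaA did not pass it, and with size factors the high light log2 fold change of psaA was 0.00, adjusted p = 0.982 (limma). Once each ratio was centred on the median of all genes, 4 of the 26 genes that then passed had opposite signs.

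At the other end, psbZ had the lower ratio in high light. In low light it had 158 reads in ibm1-3, against 231 reads in WT (log2 ratio -0.57, interval -0.87 to -0.27), and the difference was -1.90 ± 0.25 SE, adjusted p = 0.00279. The same direction was found for atpA (-0.99, adjusted p = 0.00876), clpP (-0.97, adjusted p = 0.0318), atpE (-0.86, adjusted p = 0.00884), psbA (-0.76, adjusted p = 0.013) and rbcL (-0.73, adjusted p = 0.0177). The atpB and psbC genes had differences of -0.04 (adjusted p = 0.846) and 0.13 (adjusted p = 0.648). A p above the threshold does not show that the ratios are equal.

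**Figure D5:**
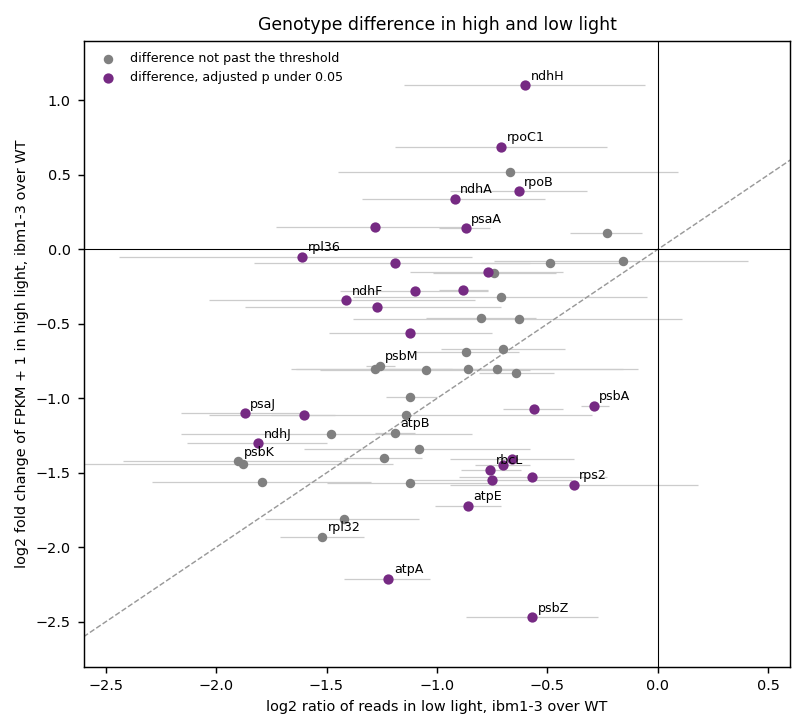
Log2 ratio of reads in low light (horizontal, 1 library per genotype, lines are exact 95% intervals for counting error) against log2 fold change of FPKM + 1 in high light (vertical), ibm1-3 over WT, for 56 chloroplast genes. Every point lies left of 0, purple points passed the threshold for a difference between conditions in the fit without the added counting error, and the dashed line marks equal values.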

How the data were processed

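Per the submitters' processing notes the authors used Bowtie2 and TAIR10. For the counting program, strand setting and filters the entry is "not given in the sources used here". Per the file headers, the authors deposited both an estimated count of fragments and an FPKM per gene for high light pair 1. For pair 2 they deposited 1 value per gene and library under the word expression, which follows the steps of FPKM, and no counts. Both list 0.01 FPKM where no fragment was counted. For low light the authors deposited a normalized signal, which is reads times 1 factor per library. All its nonzero values were whole multiples of that factor (largest distance 7.06e-06 of a step), the smallest 15 reads, so genes below 15 reads are listed at 0 there. The authors' deposited log2 ratios were not used.

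The columns of pair 1 name no replicate, and the label with the title of that table gives the number 1. In pair 2, 1003 identifiers with a transcript suffix were left out, 26 of them of the chloroplast. Both high light tables shared 21437 genes. The test for tables without counts was limma 3.58.1 (trend) in R 4.3.3 on log2(FPKM + 1), with a filter of 1 FPKM or more in 2 libraries and a threshold of 0.05 on Benjamini-Hochberg adjusted p. Replicate numbers, which match the tables, entered as a block, since each table was normalized on its own and the labels give each number its table. Samples of the same number deviated together from their group means (correlation 0.895 over all genes tested, 0.762 over chloroplast genes). The fit had 1 residual and 6.05 prior degrees of freedom. It was tested on simulated data.

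TMM factors from edgeR 4.0.16 scaled the low light reads. A gene needed 50 reads in both libraries together, 14 reads stood in for a library listed at 0, which makes that ratio a bound, and genes with such a bound were left out of the comparison of high and low light. Shares were computed from all rows of a table, in pair 2 after the identifiers with a transcript suffix were left out. Of 85 members with coordinates in the files, 80 had the same start and end in RefSeq TAIR10.1.

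Members and lists were chosen with earlier results of these data known. Named genes are, per role, the most abundant member and the highest and lowest fold changes, a set of core genes such as psbA and rbcL, the 5 highest and 5 lowest low light ratios with at least 100 reads, the sigma factors and phage-type polymerases, and from each other list the 2 with the smallest p. Others named in the text (such as ndhA, psbI and psbN) were chosen after their values were seen. After the files were read, rps16 and ycf15 were added to the roles, and identifiers of ribosomal RNA and 1 small frame were removed because no table used here annotates them. No row with values carries a ribosomal or transfer RNA name, so the share without them was computed as the share without unnamed rows. Results of 2 members are counted in the totals and not reported here.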

Additional observations from a re-analysis of the deposited data

Results flagged for a closer look

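The genotype difference of 28 chloroplast genes passed the threshold for a difference between high and low light (limma on the 3 within-table log2 ratios, adjusted p under 0.05, high minus low light), of which 26 are given. That test has 1 low light pair and 1 residual degree of freedom, and 20 of the 28 passed once the counting error of the low light ratio was added to the SE. Those lost were psbB, ndhJ, petA, ndhD, psbH, ndhF, ndhG and cemA. Values above 0 mean that ibm1-3 stood higher against WT in high light than in low light. Among photosynthesis genes with such values were psbB (0.49), petA (0.55), psaB (0.61), psaJ (0.77), psbH (0.89) and psaA (1.01). Among NDH genes they were ndhJ (0.51), ndhD (0.63), ndhF (1.08), ndhG (1.1), ndhA (1.26) and ndhH (1.70). Expression machinery added rpoB (1.01), rpoC1 (1.39) and rpl36 (1.56).

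Values below 0 were found for psbZ (-1.90), rps2 (-1.19), atpA (-0.99), clpP (-0.97), atpE (-0.86), cemA (-0.81), psbA (-0.76), rps14 (-0.76), psbD (-0.75), rbcL (-0.73) and rpl16 (-0.51). Light, age and table are confounded in these differences.

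Of 26 chloroplast identifiers with a transcript suffix, outside the comparisons above, 20 were lower and 5 higher in ibm1-3 in high light pair 2, the only table that lists them. With at least 1 FPKM in both libraries, 11 were lower in ibm1-3, and a pair was higher. This minimum was chosen after the values were seen, and several rows below it were listed at 0.01 FPKM in 1 library. Rows with identical values were counted separately, such as ATCG00920.1 and ATCG01210.1, or ATCG01180.1 and ATCG00950.1. The share of all genes lower in pair 2 alone is not given here. ATCG00390.1 had 15.2 FPKM in ibm1-3, against 12.9 FPKM in WT, and ATCG00400.1 had 7.06 FPKM in ibm1-3, against 7.05 FPKM in WT. The files give these identifiers no name, and there is no replicate.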

How the results depend on the processing

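The median of the chloroplast genes stayed below 0 under every setting run, but the number past the threshold depended on the block. Against 53 lower and 4 higher members, the fit with no replicate block gave 17 lower and 0 higher. In that fit 1462 of all 17399 tested genes were lower and 3162 higher. Leaving out 1 library gave 8 to 27 lower and 0 to 1 higher, with medians of -1.22 to -0.56, and in those fits the lone library is assumed to vary like the other genotype. A mean of at least 5 FPKM gave 2 higher and a median of -1.12, because fewer genes were tested. The median was -0.57 with a pseudocount of 10 and -1.11 with size factors. Size factors kept all 53 lower and 3 of 4 higher genes. In low light 17 members were at least 2-fold lower, in place of 30, with library totals, and likewise 17 when scaled to nuclear genes. The 28 differences between conditions became 26 when centred, 19 of 35 genes with at least 100 reads and a mean of 5 FPKM, 25 with a pseudocount of 0.1, and 20 with the counting error of the low light ratio added. Those last 2 settings and the count with copies once were chosen after seeing the data. The ratio of ibm1-3 to WT shares moved by less than its spread between the high light pairs, although the shares themselves were lower in fragments than in FPKM. Depth limits genes with few fragments, such as psaC, psaI, petL and petN.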

Other observations

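Rows of the mitochondrial genome were tested in the same high light fit. Of 45 tested, 35 were higher in ibm1-3 and 0 lower (limma, adjusted p under 0.05; 1 lower at an unadjusted p under 0.05, and 21 higher and 0 lower at that level without the replicate block), with a median log2 fold change of 0.86, where 49.2% of all genes were higher. In low light 18 of 30 such rows with at least 50 reads were lower and 12 higher in ibm1-3, with a median log2 ratio of -0.15. Scaled to library totals or to nuclear genes, 11 were lower and 19 higher, with a median of 0.11.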
